A study of Mus musculus with 3 samples.

Results

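The histone genes of mouse 5TGM1.BRE myeloma cells were described from sequencing of polyadenylated RNA. Members were all symbols in the deposited tables that begin with Hist1h to Hist4h, H2af, H3f3 or H1f, which gave 85 genes among 24467. Of these, 69 carry the symbols of the histone clusters (Hist genes, called clustered here) and 16 are histone variants named H1f, H2af or H3f3. The 69 include the processed pseudogenes Hist1h2al, which lies away from the other Hist1 genes of chromosome 13, and Hist3h2bb-ps. The 3 libraries form 1 group: 5TGM1.BRE, an engraftable bortezomib-resistant line recovered from bone marrow of C57BL/KaLwRij mice, kept in 10 nM bortezomib (a proteasome inhibitor) and off the drug for at least 72 h before extraction. It is 1 resistant line. Nothing in the labels tells if its replicates were grown as separate cultures, so SDs and p-values here cover only sample-to-sample spread, which may be technical. Selection in bortezomib is named in the cell type labels of replicates 2 and 3 but not in that of replicate 1. Sensitive parental cells were not analysed here, so no change on resistance was measured.

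Nucleosomes wrap DNA around a core of histones H2A, H2B, H3 and H4, and linker histone H1 binds the DNA between them. The clustered genes are transcribed in S phase, when new chromatin is assembled, and most of their messages end in a conserved stem-loop, bound by Slbp, in place of a poly(A) tail. Variant genes such as H2afz and H3f3b lie elsewhere in the genome, carry introns in many cases, give ordinary polyadenylated mRNA and supply histones throughout the cell cycle.

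Sequences of the 3′ ends are shown first, because selection of polyadenylated RNA acts on this difference. The search looked for a 6-base stem that begins with GG, 3 pyrimidines and T, a 4-base loop without G, and the reverse complement of the stem, on the transcript strand after the stop codon (GENCODE M21, GRCm38). It found a stem-loop in 46 of 69 clustered genes, 21 to 58 bases after the stop codon. Many models of the other clustered genes, such as Hist1h1b, Hist1h3h and Hist1h4k, hold 0 bases after the stop codon. No stem-loop could be found in such models, so these genes are not shown to lack one. Among variants, 1 of 16 had one. Protein-coding genes outside the family were searched over the whole transcript, not only after the stop codon, and 33 of 21795 (0.151%) had one. The following lines give 30 bases around it, 5′ to 3′, with the stem-loop in capitals, for clustered genes of each histone class and for H2afx.
Hist3h2a (chr11:58955165-58955194, plus strand): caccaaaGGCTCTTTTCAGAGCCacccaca
Hist3h2ba (chr11:58949342-58949371, plus strand): acccaaaGGCTCTTTTCAGAGCCaccttcc
Hist1h2ab (chr13:23751565-23751594, plus strand): aaacaaaGGCTCTTTTCAGAGCCacccaca
Hist1h2ae (chr13:23570661-23570690, minus strand): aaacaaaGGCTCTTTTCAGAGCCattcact
Hist1h1c (chr13:23739505-23739534, plus strand): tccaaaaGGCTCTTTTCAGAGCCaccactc
Hist1h3e (chr13:23561896-23561925, minus strand): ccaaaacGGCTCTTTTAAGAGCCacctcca
Hist1h4a (chr13:23760793-23760822, minus strand): aaccaaaGGCCCTTCTCAGGGCCgcccaca
Hist1h4i (chr13:22040959-22040988, minus strand): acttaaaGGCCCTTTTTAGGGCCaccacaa
H2afx (chr9:44335233-44335262, plus strand): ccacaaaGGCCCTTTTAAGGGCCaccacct

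The H2A, H2B and H1 genes shared nearly the same letters: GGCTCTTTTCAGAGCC stood in 10 of 11 H2A, 8 of 10 H2B and 3 of 4 H1 genes with a stem-loop, and in 5 of 9 H3 genes. The H4 genes had other stems, with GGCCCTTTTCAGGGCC in 7 of 12. H2afx, the H2A variant phosphorylated at DNA breaks, carried the GGCCC stem of the H4 genes rather than that of the clustered H2A genes.

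Some stem-loop genes also have a poly(A) signal further downstream in the gene model. AATAAA or ATTAAA lay in the last 60 bases of the model in 17 of 69 clustered genes, 11 of 16 variants and 78.9% of other protein-coding genes. Stem-loop and signal occurred together on the same transcript in 13 clustered genes and in H2afx. The next lines show 30 bases around the signal, in capitals, for 4 clustered genes that reached 1 CPM in every library and for H2afx.
Hist3h2a (chr11:58956785-58956814, plus strand): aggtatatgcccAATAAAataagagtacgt
Hist3h2ba (chr11:58949495-58949524, plus strand): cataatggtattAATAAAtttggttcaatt
Hist1h2ae (chr13:23570527-23570556, minus strand): cccagcttctccAATAAAtgggtcaatttt
Hist1h4i (chr13:22040639-22040668, minus strand): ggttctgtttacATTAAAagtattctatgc
H2afx (chr9:44336031-44336060, plus strand): tgggctaattttATTAAAggatcgtttggt

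The signal lay 142 bases after the stem-loop in Hist3h2ba, 123 in Hist1h2ae, 309 in Hist1h4i, 787 in H2afx and 1609 in Hist3h2a. A match to these letters is a description of the sequence; where the RNA ended in these cells was not measured.

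The tables held 62303493, 45705994 and 59402218 counts for replicates 1, 2 and 3. Levels are given as CPM, the count scaled to a library total of 1000000. Where a gene had 0 counts, a level of up to 3 counts cannot be told from 0; this is 0.0482, 0.0656 and 0.0505 CPM in the 3 libraries, for counting error only. All 7 plasma cell markers were at 1 CPM or more in every library, as was 1 of 4 B cell markers (Ms4a1), and none of the 18 markers of T and NK, myeloid, erythroid or stromal cells was. Replicate 3 stood apart over all genes: 51.6% of 11308 genes tested differed from the other 2 libraries, against 0.0796% for replicate 1 and 0.0531% for replicate 2.

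Variant RNA made up nearly all histone counts. The 85 genes together took 0.148, 0.152 and 0.172% of all counts. The 69 clustered genes summed to 4904, 4447 and 6824 counts, whereas the 16 variants summed to 87474, 64842 and 95053. Clustered genes thus gave 5.31, 6.42 and 6.70% of histone counts (6.14% ± 0.735, SD, n = 3). Every library showed the same order, and the share was lowest in replicate 1. Clustered genes also share more sequence. A median of 54.1% of their 50-base stretches occur in another gene too, against 8.84% for variants. How the counting treated reads with several matches is not known, and its part in the gap was not tested.

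Clustered genes are short, with a median union exon length of 534 bases against 1508.5 for variants. Per kilobase of that length, summed variant levels were 5.86, 4.41 and 3.97 times those of clustered genes. On the log2 scale the clustered to variant ratio was -2.23 ± 0.29 (SD, n = 3). It was -3.75 on coding length and -3.94 with no length correction. Using the RefSeq gene span for genes with 1 exon, it was -1.87.

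The gap differed by histone class. For H1, variants summed to 40.5, 34.4 and 38.4 times the clustered level per kilobase, and for H3 to 37.6, 33.7 and 36.7 times. For H2A the ratio was 5.91, 4.06 and 3.49. The H2A values lay below those of H1 and H3 in each library. They rest largely on Hist1h2af and Hist1h2ab, of which Hist1h2af shares most of its sequence with other genes: without this pair the H2A ratio was 18.9, 16.4 and 22.0. H2B and H4 have no variant among the members, and their clustered genes summed to 34.2 ± 4.29 and 9.23 ± 1.20 CPM per kilobase (SD, n = 3).

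**Figure D1:**
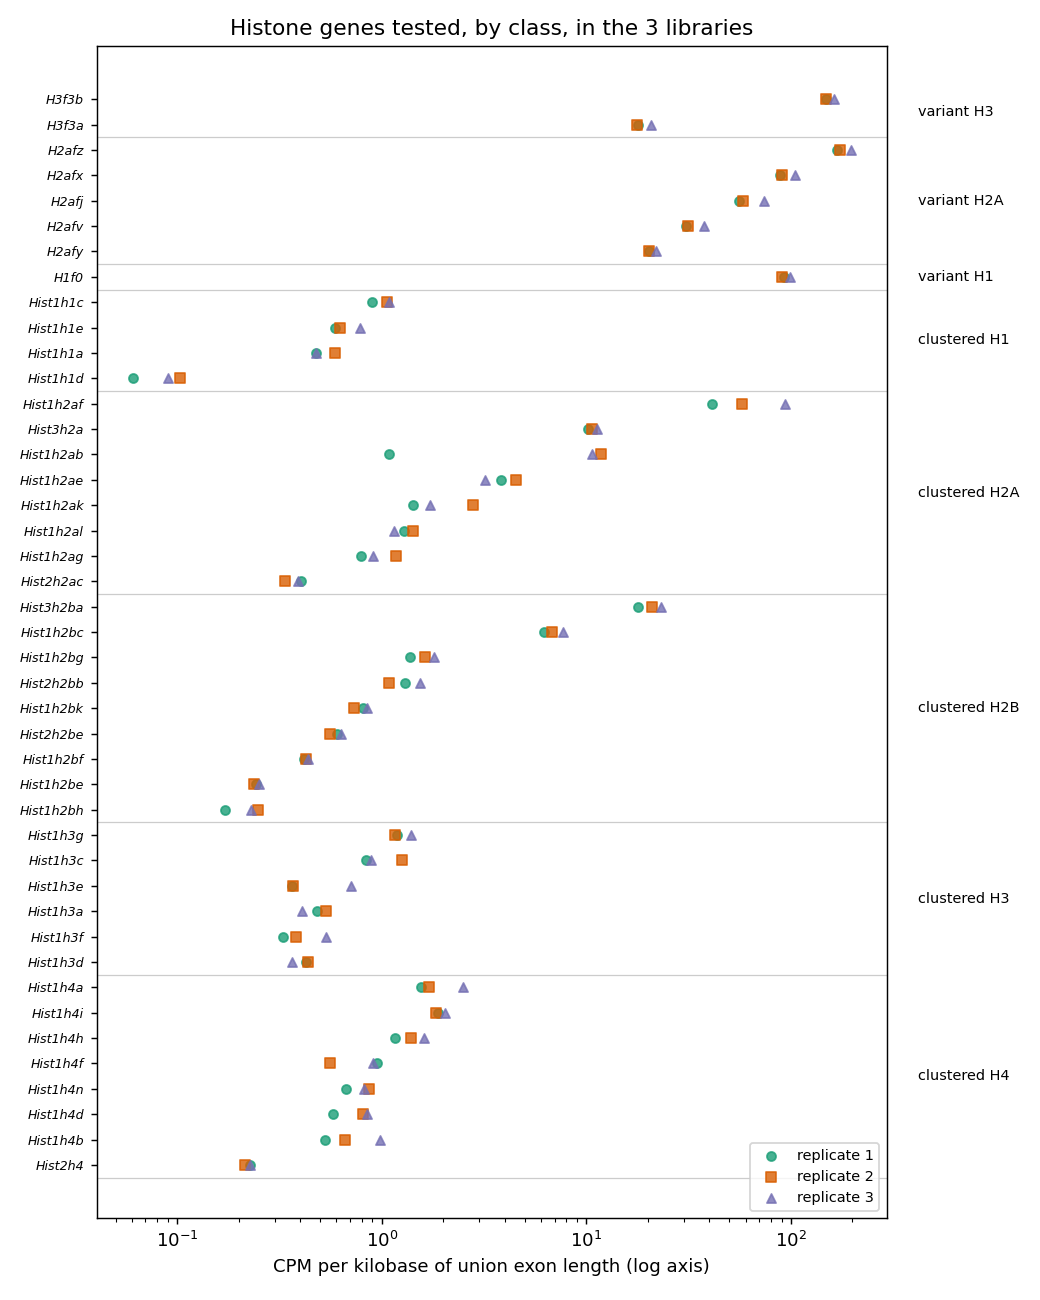
Levels of the 43 histone genes tested, as CPM per kilobase of union exon length on a log axis, grouped by class, with 1 symbol per library. The 8 variants lie to the right of nearly all clustered genes. Hist1h2af lies among the variants, and Hist3h2ba lies level with the lowest of them, H2afy and H3f3a. Hist1h2ab has 1 library far to the left of the other 2.

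Among variants, 8 of 16 were at 1 CPM or more in all 3 libraries. H3f3b, which encodes the replacement H3 placed outside replication, had 27422, 20215 and 28855 counts (456 ± 25.7 CPM). H3f3a, which encodes the same protein, had 3921, 2820 and 4332 counts (65.9 ± 6.16 CPM). Per kilobase, H3f3b stood 8.23, 8.44 and 7.84 times above H3f3a, with no overlap between the genes.

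The pair of H2A.Z genes also differed. H2A.Z is the variant placed at promoters by the SRCAP and EP400 complexes. H2afz had 18602, 14125 and 20667 counts (319 ± 26.0 CPM) and H2afv 3110, 2337 and 3631 (54.1 ± 6.15 CPM). Per kilobase H2afz was 5.50, 5.56 and 5.23 times higher. H3f3b and H2afz together gave 49.8, 49.6 and 48.6% of all histone counts.

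H1f0, a linker histone known from cells that leave the cycle, had 11821, 8452 and 12095 counts (193 ± 9.71 CPM). H2afx had 7660, 5715 and 8595 counts (131 ± 12.0 CPM). H2afj, an H2A variant with a distinct C-terminal tail, had 6351, 4866 and 8010 (114 ± 17.8 CPM). H2afy, which encodes macroH2A1 with its large extra domain, had 8580, 6310 and 8860 (142 ± 6.51 CPM). In order of mean CPM per kilobase, the 8 variants were H2afz (179), H3f3b (153), H2afx (94.6), H1f0 (93.8), H2afj (62.5), H2afv (33.1), H2afy (20.8) and H3f3a (18.8). Ranges over the 3 libraries overlapped for H2afx with H1f0 and for H2afy with H3f3a.

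The other 8 variants were at or near 0. H2afy2, the gene for macroH2A2, had 3, 2 and 0 counts, and its exons overlap Aifm2 on the other strand. H1foo, the oocyte linker histone, had 4, 0 and 8. H1fx, H1fnt, H2afb1, H2afb2, H2afb3 and the pseudogene H2afy3 had 0 counts in every library. The 8 germ cell histones fixed as a list, which also include Hist1h1t, Hist1h2aa and Hist1h2ba, summed to 5, 1 and 12 counts.

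Of the 69 clustered genes, 64 had a count in some library, 35 passed the filter on low counts and 10 reached 1 CPM in all 3 libraries. The 5 at 0 were Hist2h2aa2, Hist1h2bm, Hist1h2bq, Hist1h2br and Hist1h4m. The share of their 50-base stretches that also occur in another gene was 100, 43.8, 97.3, 88.7 and 89.8%, in that order. Their counts of 0 may thus depend on how reads with several matches were treated, and they are not shown to be silent. A few H2A and H2B genes held most of the counts: Hist1h2af, Hist1h2ab, Hist3h2a and Hist3h2ba gave 63.2, 66.0 and 70.4% of all clustered counts.

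Hist3h2a and Hist3h2ba, an H2A and an H2B gene that neighbour each other on chromosome 11, are the genes with stem-loop and signal shown first above. Hist3h2a (chr11:58954685-58956830) had 1357, 1046 and 1437 counts (23.0 ± 1.21 CPM). Hist3h2ba (chr11:58948920-58949533) had 686, 585 and 846 counts (12.7 ± 1.62 CPM). Per kilobase their means were 10.7 and 20.7, and the GENCODE model of Hist3h2a is 2146 bases long, against a RefSeq span of 508. That model shares 708 exonic bases on the same strand with Trim17, which had 1, 0 and 0 counts.

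Hist1h2af, an H2A gene on chromosome 13 (chr13:23533906-23534304), had the highest mean CPM among clustered genes, through replicate 3. It had 1024, 1048 and 2219 counts (25.6 ± 10.7 CPM). In CPM it was 16.4 in replicate 1 and 22.9 in replicate 2, against 21.8 and 22.9 for Hist3h2a. Its level per kilobase (64.1 ± 26.8 CPM) was near that of H2afj and above those of H2afv, H2afy and H3f3a in every library. Its GENCODE model ends 1 base after the stop codon and does not reach a stem-loop. Of the 50-base stretches of its transcript, 94.0% also occur in another gene, with Hist1h2ad, Hist1h2ah and Hist1h2ai sharing the most, so its counts depend on how the counting treated reads with several matches.

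Hist1h2ab, another H2A gene of that cluster (chr13:23751126-23751598), varied most among the histone genes tested. It had 32 counts in replicate 1 but 255 and 300 in replicates 2 and 3. In CPM, replicate 2 was 10.9 and replicate 3 was 9.83 times replicate 1, while replicate 3 was 0.905 times replicate 2. It shares 58.0% of its 50-base stretches with other histone genes. Hist1h2bj, an H2B gene too low to be tested, had 1, 13 and 15 counts, and was named after its values were seen.

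**Figure D2:**
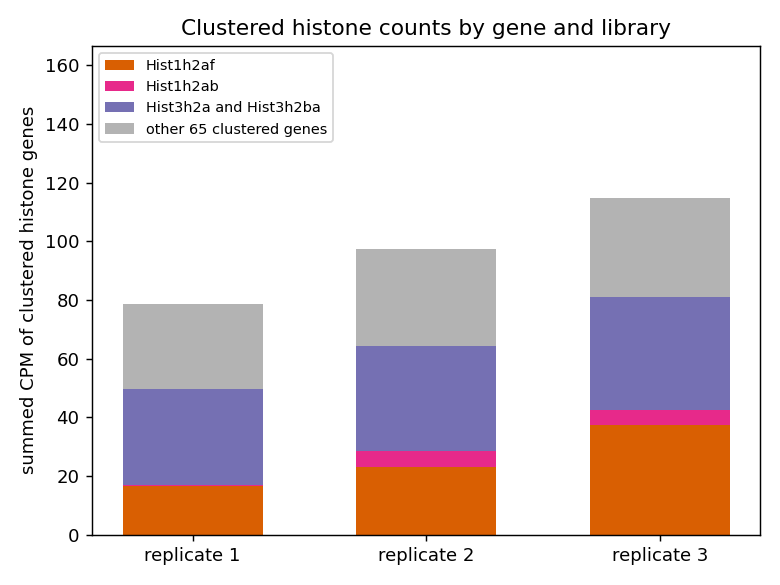
Summed CPM of the 69 clustered genes in each library, stacked by gene. The band of Hist1h2af is wider in replicate 3 than in the other 2 libraries, and that of Hist1h2ab is barely visible in replicate 1.

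Among other H2B genes, Hist1h2bc, known to give polyadenylated RNA, had 445, 360 and 526 counts (7.96 ± 0.859 CPM). Hist2h2be, known for the same, had 99, 67 and 98 (1.57 ± 0.0937 CPM). Hist1h2bg had 53, 46 and 66 (0.989 ± 0.131 CPM). The remaining H2B genes were lower per kilobase than these leading genes, except Hist2h2bb at 1.31 and Hist1h2bk at 0.798, which lay above Hist2h2be at 0.599.

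The linker, H3 and H4 genes of the clusters were low. The highest H1 genes per kilobase were Hist1h1c with 87, 76 and 100 counts, Hist1h1e with 71, 55 and 90, and Hist1h1a with 22, 20 and 21. The highest H3 genes were Hist1h3g with 39, 28 and 44 counts, Hist1h3c with 33, 36 and 33, and Hist1h3e with 19, 14 and 35. None of the 12 H3 genes reached 1 CPM in all libraries. Among H4 genes, Hist1h4i had 85, 61 and 88 counts, Hist1h4a 52, 42 and 80, and Hist1h4h 34, 30 and 45. Hist1h4i and Hist1h4a had the same mean of 1.92 CPM per kilobase.

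Clustered genes had a higher median CPM where a transcript held both 3′ end features than where it held a stem-loop without a signal. The 13 with stem-loop and poly(A) signal had a median of 1.03 CPM, and 6 of 13 reached 1 CPM in all libraries. The 33 with a stem-loop but no signal on the same transcript had a median of 0.253 CPM, and 1 of 33 reached it. They include Hist1h2bp, whose signal is on another transcript. Of 20 genes with neither feature, 2 reached it, Hist1h2af and Hist1h2bc. Many of these 20 models end at or just after the stop codon, before any 3′ end feature could be seen. Such genes are not shown to lack the features. Of 3 genes with a signal alone, Hist2h2be reached 1 CPM in all libraries and the other 2 had 0 counts. Models with a signal are longer, with a median of 1560 bases over 17 genes against 483.5 over 52 without, and longer models can collect more counts; the part of length in the difference was not tested.

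**Figure D3:**
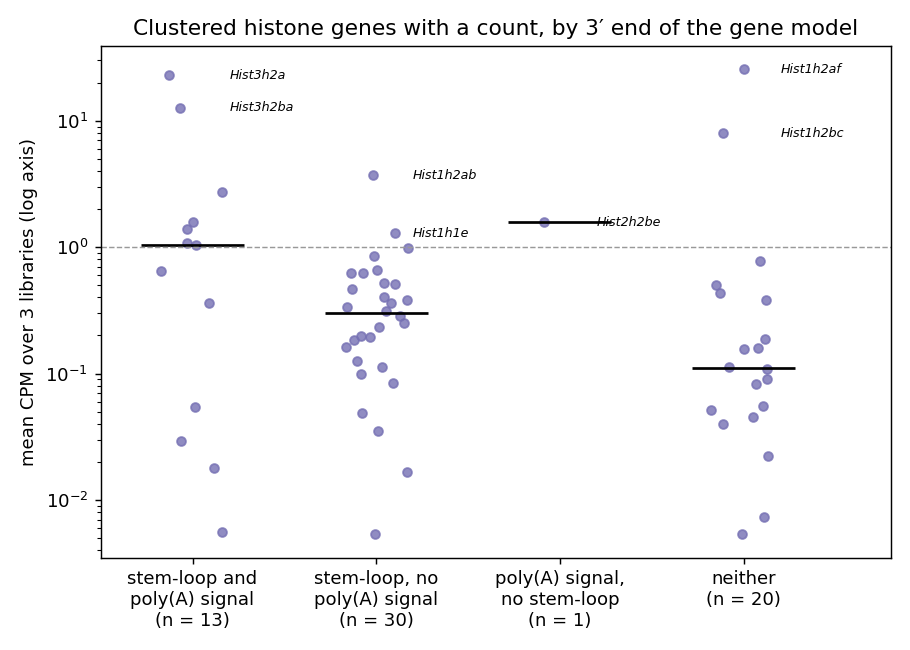
Mean CPM over the 3 libraries (log axis) of the 64 clustered genes with a count, by the features found at the 3′ end of the GENCODE model. Hist1h2bp, with stem-loop and signal on different transcripts, is placed with the genes that have a stem-loop and no signal. Points are genes, black lines are medians and the dashed line marks 1 CPM; Hist3h2a and Hist3h2ba lead the 13 genes with both features, and Hist1h2af leads those with neither.

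H2A and H2B genes often share 1 promoter and are read in opposite directions. Among genes with exactly 1 RefSeq start, and within a limit of 500 bases, there were 10 such pairs, with 164 to 281 bases between starts. Other genes were not searched, among them Hist2h2be and Hist1h2bc, which lie beside Hist2h2ac and Hist1h2ac on the other strand. The 10 are thus not all the divergent neighbours. In 3 of the 10 pairs both genes had more than 3 counts in every library. Per kilobase the H2A gene was higher in 1 of these 3 and the H2B gene in 2. Hist1h2ae had 168, 146 and 134 counts (2.72 ± 0.47 CPM), against 53, 46 and 66 for its partner Hist1h2bg. In the other 2 pairs, Hist1h2bk had 24, 16 and 24 against 12, 10 and 9 for Hist1h2ah. Hist1h2bf had 12, 9 and 12 against 6, 4 and 4 for Hist1h2ad. Outside these 3 pairs, Hist1h2ak had 35, 50 and 40 against 1, 0 and 0 for Hist1h2bn. Of the 50-base stretches of Hist1h2bn, 86.4% also occur in another gene. The share was 92.1% in Hist1h2ah, 74.2% in Hist1h2bk, 67.1% in Hist1h2ad and 65.8% in Hist1h2bf. It was 43.2% in Hist1h2ae, 49.7% in Hist1h2bg and 57.0% in Hist1h2ak. The counts of all these genes, and the order within pairs, thus depend on how reads with several matches were treated. The ranges of both genes did not overlap in any pair whose counts are given here.

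Promoters were read from RefSeq (GRCm38.p6, 250 bases before each start), where 76 of 85 members had one. The octamer ATTTGCAT, which binds POU factors (its other strand reads ATGCAAAT), was found in 7 of 18 H2A and 7 of 16 H2B promoters. It was in none of the clustered H1, H3 or H4 promoters, in H3f3b among the variants, and in 1.60% of all 32851 promoters. In the 10 divergent pairs the starts lie 164 to 281 bases apart, so the windows of the partners overlap. A single match, of the octamer or of CCAAT below, can therefore be counted for both genes, and H2A and H2B counts are not independent. The lines below show the octamer in capitals for 3 abundant clustered H2A genes and for H3f3b.
Hist1h2ab (chr13:23750939-23750986, plus strand): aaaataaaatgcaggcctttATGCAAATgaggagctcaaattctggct
Hist3h2a (chr11:58954546-58954593, plus strand): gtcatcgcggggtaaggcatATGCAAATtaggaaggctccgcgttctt
Hist1h2ae (chr13:23571321-23571368, minus strand): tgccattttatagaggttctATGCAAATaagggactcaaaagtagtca
H3f3b (chr11:116024551-116024598, minus strand): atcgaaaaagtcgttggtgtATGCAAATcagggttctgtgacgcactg

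These octamers lay 129, 119, 128 and 74 bases before the start, in that order. CCAAT (either strand) was in all 18 H2A, 16 H2B and 6 H1 promoters of clustered genes, and in 8 of 10 H3 and 3 of 12 H4 promoters. Among variants it was in 6 of 8 H2A, 2 of 2 H3 and 1 of 4 H1 promoters. Its share over all promoters was 33.8%. The E2F-like letters TTTCCCGC were in 0.895% of all promoters and, among members, in Hist1h4a alone. Its promoter held 4 matches, 199, 144, 89 and 64 bases before the start, shown in capitals on the next line because Hist1h4a was among the highest H4 genes.
Hist1h4a (chr13:23761286-23761468, minus strand): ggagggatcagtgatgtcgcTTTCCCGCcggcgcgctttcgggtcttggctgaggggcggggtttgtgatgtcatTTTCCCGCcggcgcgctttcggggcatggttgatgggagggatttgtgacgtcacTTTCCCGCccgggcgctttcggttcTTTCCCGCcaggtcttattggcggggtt

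A match in these letters is not a measured binding site.

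Histone genes were then compared between libraries of the group with edgeR's quasi-likelihood test, each library against the other 2, with Benjamini-Hochberg adjustment over 11308 genes. The 3 contrasts use the same libraries and are not independent. Each has 1 library on one side and 1 residual degree of freedom, so a call describes that library and not a replicated change. Of the members, 35 clustered genes and 8 variants passed the filter.

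In the library of replicate 1, Hist1h2ab and Hist1h2af fell, which was 2 of 35 clustered genes, against 0.0531% of all genes tested called lower. Hist1h2ab fell by 3.38 on the log2 scale (SE 0.325, adjusted p = 3.62e-21). Hist1h2af fell by 0.90 (SE 0.204, adjusted p = 0.0138). With the trend of counts on gene length removed, Hist1h2ab alone stayed called lower, against 0.0265% of all genes, and DESeq2 likewise called it alone, against 0.00615%; the adjusted p of Hist1h2af was 1.00 in both, with a log2 fold change of -0.63 and -0.89, in that order. None of the 8 variants was called, at an unadjusted p under 0.05 or by DESeq2. In replicate 2, edgeR called 0 of 35 clustered genes and 0 of 8 variants, against 0.0531% of all genes in either direction, with 2 and 0 at an unadjusted p under 0.05. DESeq2 called none of the members, against 0.00615% of genes.

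In replicate 3, 8 of 8 variants rose, against 24.8% of all genes tested called higher. The largest rise was that of H2afj, 0.40 on the log2 scale (SE 0.0397, adjusted p = 1.98e-22). H2afv rose by 0.31, H3f3a by 0.26, H2afx by 0.25, H2afz by 0.23, H3f3b by 0.17, H1f0 by 0.15 and H2afy by 0.14. With the trend of counts on gene length removed per library, H2afy (0.27), H2afj (0.22) and H3f3a (0.22) were called higher, 3 of 8 against 16.3% of all genes, and H1f0 stood at -0.015 (adjusted p = 0.812).

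Of the 35 clustered genes, 6 rose in replicate 3 and none fell, while 24.8% of all genes tested were called higher and 26.8% lower. They were Hist1h2af (0.97, SE 0.0657), Hist1h3e (0.97, SE 0.353), Hist1h2ab (0.89, SE 0.134), Hist1h4a (0.66, SE 0.227), Hist3h2ba (0.30, SE 0.0807) and Hist1h2bc (0.27, SE 0.0971). Their adjusted p-values from edgeR ran from 2.65e-46 for Hist1h2af to 0.0136 for Hist1h3e. The call of Hist1h2ab rests on the low count of replicate 1, since replicate 3 lay just under replicate 2. It was lost with no scaling (log2 fold change 0.86, SE 0.510) and with the length trend removed (0.60, SE 0.449). With the length trend removed, Hist1h2af stayed called at 0.66, Hist1h2ae was called lower at -0.64 (adjusted p = 0.002), and Hist3h2ba stood at -0.0039 (adjusted p = 0.975). DESeq2 gave an adjusted p to 4 clustered genes in this contrast and called none of them, with 1 clustered gene at an unadjusted p under 0.05. Its fold changes were close to those of edgeR where it gave an adjusted p, at 0.95 for Hist1h2af (adjusted p = 0.0553), 0.28 for Hist3h2ba and 0.26 for Hist1h2bc, whereas Hist1h3e, Hist1h2ab and Hist1h4a had no adjusted p. It called 7 of 8 variants higher, against 14.0% of genes.

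**Figure D4:**
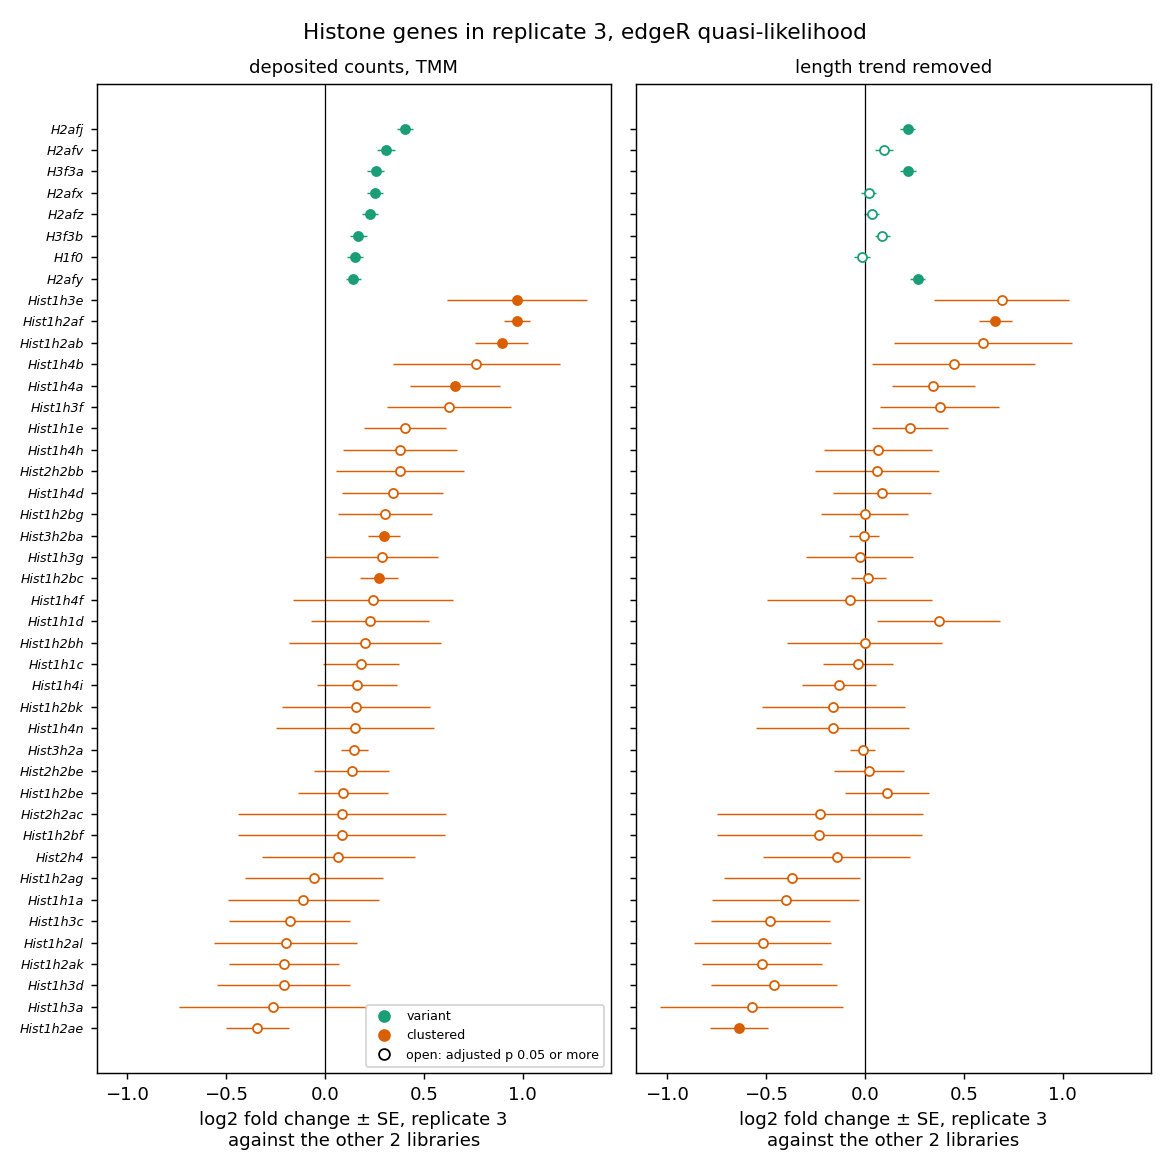
Log2 fold change with its SE of replicate 3 against the other 2 libraries, for 8 variants (green) and 35 clustered genes (orange). The left panel uses deposited counts with TMM scaling, the right panel has the length trend removed; filled points have an adjusted p under 0.05. All 8 variants are filled on the left and 3 on the right.

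The median log2 fold change in replicate 3 was 0.18 for clustered genes (27 of 35 positive), 0.24 for variants and 0.01 over all genes tested. With the length trend removed the medians were -0.01, 0.09 and 0.01. The ratio of the highest to the lowest CPM over the 3 libraries had a median of 1.31 in clustered genes (1.05 to 10.9), 1.17 in variants (1.08 to 1.32) and 1.16 over all genes tested. Clustered genes have fewer counts, and the part of counting error in their spread was not tested.

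Genes that make, guard and place histone RNA and protein were present throughout. All of the 17 genes of 3′ end processing found in the tables, 10 of mRNA decay, 12 of polyadenylation, 25 chaperones and 20 S phase genes were at 1 CPM or more in all libraries. Slbp, which binds the stem-loop, had 4825, 3544 and 4676 counts (77.9 ± 0.71 CPM), with no call in replicate 3 (log2 fold change 0.05, adjusted p = 0.279). Npat, the activator of clustered histone transcription, had 8027, 5883 and 6067 counts and fell by 0.30 in replicate 3 (adjusted p = 1.72e-12). Casp8ap2, needed for histone RNA processing, had 5944, 4387 and 4306 and fell by 0.37 (adjusted p = 2.35e-17). Lsm10, of the U7 particle that cuts histone RNA, had 1931, 1392 and 2124 and rose by 0.25 (adjusted p = 0.000333). Lsm11, its partner, had 972, 659 and 849 with no call (log2 fold change -0.04, adjusted p = 0.664). With the length trend removed, Npat (-0.20) and Casp8ap2 (-0.25) stayed called lower, Slbp was called higher (0.15, adjusted p = 0.00481), and Lsm10 stood at -0.02 with no call (adjusted p = 0.834).

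Eri1, the nuclease that trims and degrades histone RNA, had 11808, 8538 and 9802 counts and fell by 0.16 in replicate 3 (adjusted p = 0.0003). Among chaperones, Hira, which places the H3f3a and H3f3b product, had 6131, 4283 and 5013 counts and fell by 0.16 (adjusted p = 0.000411). Chaf1a, which places newly made H3 at forks, had 7056, 5180 and 6001 and fell by 0.13 (adjusted p = 0.00262). Cenpa, the centromeric H3 variant, which the rule on symbols leaves out, had 4229, 3180 and 4807 and rose by 0.27 (adjusted p = 7.55e-10). Anp32e, which removes H2A.Z, had 43040, 30665 and 40955 counts with no call (log2 fold change 0.05, adjusted p = 0.374). With the length trend removed, Cenpa stayed called higher (0.36, adjusted p = 5.92e-07), whereas Eri1 (0.02), Chaf1a (0.04) and Hira (-0.06) were not called.

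By list, edgeR called in replicate 3 7 higher and 6 lower of 17 in 3′ end processing, 2 and 7 of 10 in decay, 3 and 4 of 12 in polyadenylation, 4 and 12 of 25 chaperones, and 6 and 5 of 20 S phase genes. Over all genes tested, 24.8% were called higher and 26.8% lower. Medians were 0.00, -0.23, -0.08, -0.06 and 0.00 on the log2 scale. With the length trend removed these counts were 4 and 3, 1 and 3, 4 and 2, 5 and 4, and 5 and 3, read against 16.3% of all genes called higher and 16.0% lower. In replicate 1 none of these genes was called.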

How the data were processed

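Polyadenylated RNA of 3 samples of 1 group was sequenced. The authors deposited raw counts per gene symbol for each sample, with no header. Per the submitters' processing notes, they used bcl2fastq, cutadapt 4.2, STAR and mm10; the counter, annotation and strand setting were not given in the sources used here. Overlapping genes and near-identical histone copies are therefore uncertain. Counts were scaled to CPM and, between genes, divided by union exon length (GENCODE M21, GRCm38). Each library was set against the other 2 with edgeR 4.0.16 in R 4.3.3 (TMM, filterByExpr, quasi-likelihood, 1 residual degree of freedom, Benjamini-Hochberg at 0.05 over 11308 genes), checked on simulated counts. The SE printed was derived from the test, as the size of the log2 fold change over the square root of its F statistic. With 1 library on one side, it is not a measure of the spread between libraries. For Hist1h2ab in replicate 3 it was 0.134, although replicate 2 was 10.9 times replicate 1. Alternatives were DESeq2 1.42.0, RLE or no scaling, no filter, a loess length trend removed (span 0.3), a threshold of 0.01, other lengths and limits, and each replicate left out. Members, lists and tests were chosen with earlier results of these data known. Genes named were the 3 highest per kilobase in each class, all variants at 1 CPM, the largest called changes, genes known for polyadenylated or germ cell RNA, and defining genes of each list; others were named after their values were seen. A symbol of the processing list was not matched, which left 17 of 18. Protein sequences were not used here.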

Additional observations from a re-analysis of the deposited data

How the results depend on the processing

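No paired analysis was possible because the 3 libraries form 1 group. For called clustered genes, the count in replicate 1 went from 2 to 1 with DESeq2, with the length trend removed and at a threshold of 0.01; in replicate 3 it went from 6 to 0 with DESeq2, which gave an adjusted p to 3 of those 6, and to 2 with the length trend removed, where variants went from 8 to 3. With that trend removed, Hist3h2ba in replicate 3 reversed to -0.0039 and H1f0 to -0.015; the cause was not tested. Without replicate 3, medians of replicate 2 reversed to 0.16 for clustered genes and 0.019 for variants. The log2 clustered to variant ratio of -2.23 became -3.94 with no length, -2.55 with the longest transcript, -3.75 with coding length and -1.25 with H2afx among the clustered genes. Under alternatives chosen after seeing the data it was -1.87 with RefSeq spans, -3.20 without Hist1h2ab and Hist1h2af, and -2.60 without Hist3h2a and Hist3h2ba. It stayed below 0 in each of these. Clustered genes detected numbered 18 at 0.5 CPM and 4 at 5 CPM. The median spread of clustered genes was 1.34 with TMM scaling. Leaving out each replicate in turn, the ratio ran from -2.35 to -2.06. The spread ran from 1.15 to 1.20 in clustered genes and 1.02 to 1.16 in variants. Detected clustered genes numbered 10 to 12, with 8 variants detected each time. With a library left out, the spread cannot rise and the number detected cannot fall. These values are therefore not directly comparable with those over all 3 libraries. Under the same omissions, medians for clustered genes in replicates 1, 2 and 3 ran from -0.27 to -0.16, -0.11 to 0.16 and 0.11 to 0.27. For variants they ran from -0.25 to -0.02, -0.22 to 0.02 and 0.22 to 0.25. RLE scaling and no filter changed none of the 16 calls of single histone genes. No scaling lost the call of Hist1h2ab in replicate 3. Most clustered genes lay under 1 CPM, where counting error limits what could be detected.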
